A study of Homo sapiens with 12 samples.

Results

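The 54 genes described here encode the machinery that copies DNA in S phase, and they were chosen by symbol for their known roles. Earlier results of these data were known when they were chosen. All 54 were found among the 13511 genes of the deposited count table, and they lie on 22 chromosomes. They fall into 9 role groups. Origin recognition and licensing holds 8 genes (ORC1 to ORC6, CDC6 and CDT1), the MCM proteins 8 (MCM2 to MCM8 and MCM10) and helicase activation 7 (CDC45, GINS1 to GINS4, CDC7 and DBF4). The DNA polymerases and primase make up 10 genes (POLA1, POLA2, PRIM1, PRIM2, POLD1, POLD2, POLD3, POLE, POLE2 and POLE3), and the clamp, clamp loader and single-strand binding group 9 (PCNA, RFC1 to RFC5 and RPA1 to RPA3). The remaining groups are Okazaki fragment maturation with 2 (FEN1 and LIG1), nucleotide supply with 5 (RRM1, RRM2, TYMS, TK1 and DUT), chromatin at the fork with 3 (UHRF1, CHAF1A and CHAF1B) and the E2F transcription factors with 2 (E2F1 and E2F2).

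The RNA came from wild-type HepG2 cells, a single hepatocellular carcinoma line grown in high-glucose medium with serum. A-485 blocks the acetyltransferase activity of CBP and p300, coactivators that acetylate histones, and doxycycline (Dox) is an antibiotic that also blocks translation in mitochondria. The cells of the DMSO and Dox groups had 1 h of pretreatment with DMSO, and those of the A-485 group and the A-485 and Dox group had 1 h with 5 µM A-485. For the next 24 h the Dox group and the A-485 and Dox group also had 30 µg/ml doxycycline, and no group had any other antibiotic. Each of the 4 groups has 3 libraries of poly(A)-enriched RNA, and the layout asks whether the response to a mitochondrial stress depends on CBP and p300. The labels do not say that the 3 libraries are separate cultures, so each p-value measures the spread between libraries, which may be technical.

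Replication starts at origins, where the origin recognition complex, CDC6 and CDT1 load the ring-shaped MCM2 to MCM7 helicase in G1. In S phase the kinase CDC7 with DBF4, together with CDC45 and GINS, turns the loaded ring into an active helicase, and the polymerases, the sliding clamp PCNA and its loader follow. Many of these genes are transcribed in late G1 by E2F factors, so their RNA is commonly high in dividing cells, hepatoma lines included.

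Levels are counts scaled to the library total (CPM) after TMM, a scaling that assumes most genes do not differ. Gene totals ran from 46600324 to 51773300 counts. Fold changes are log2 values from edgeR's quasi-likelihood test with their standard error (SE), and a gene is called at a Benjamini-Hochberg adjusted p under 0.05 over all 13511 genes. Dox replicate 1 stood apart from every other library. Its counts had a Spearman correlation of 0.901 and 0.899 with Dox replicates 2 and 3, against 0.999 for every other pair within a group, and the biological coefficient of variation was 20.7% with it and 1.52% without it. Among the 54 genes, its CPM differed from the mean of replicates 2 and 3 by a log2 of -2.99 for MCM2 to 1.94 for POLA2, and by more than 1 for 12 genes. In the DMSO group no member strayed by more than 0.10 from its group mean on the log2 scale, and the limits were 0.26 with A-485 and 0.24 with both compounds. Over the members, the Spearman correlation of the deviation of Dox replicate 1 with exonic length was -0.22, and over all genes it was -0.45, given as descriptions of 1 library. Results are therefore given with all 12 libraries and again without Dox replicate 1.

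Short stretches of the promoters of 5 members are shown because these genes span the response to A-485 described next. E2F2 and UHRF1 fell most, ORC4 and ORC5 had the highest fold changes, and PCNA is the general S phase marker. The sequences are from RefSeq (GRCh38.p14), run 5′ to 3′ on the gene's strand, and cover 250 bases before to 50 bases after the start site. Capitals mark matches on either strand to the E2F letters TTTGGCGC, TTTCCCGC, TTTCGCGC or TTTGCCGC and to the CCAAT box, CCAAT. The window of E2F2, on the minus strand at chr1:23531184-23531483, holds the E2F match TTTGGCGC from base -42 of the start site.
E2F2: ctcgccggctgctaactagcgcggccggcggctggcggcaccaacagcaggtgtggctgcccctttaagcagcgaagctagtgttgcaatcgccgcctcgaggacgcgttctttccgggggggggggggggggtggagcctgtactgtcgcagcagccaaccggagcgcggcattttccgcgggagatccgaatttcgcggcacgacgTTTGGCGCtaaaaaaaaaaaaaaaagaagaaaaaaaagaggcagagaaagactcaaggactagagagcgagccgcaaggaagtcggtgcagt
UHRF1, on the plus strand at chr19:4909251-4909550, has CCAAT from base -86 and GCGGGAAA, an E2F match read on the other strand, from base -14.
UHRF1: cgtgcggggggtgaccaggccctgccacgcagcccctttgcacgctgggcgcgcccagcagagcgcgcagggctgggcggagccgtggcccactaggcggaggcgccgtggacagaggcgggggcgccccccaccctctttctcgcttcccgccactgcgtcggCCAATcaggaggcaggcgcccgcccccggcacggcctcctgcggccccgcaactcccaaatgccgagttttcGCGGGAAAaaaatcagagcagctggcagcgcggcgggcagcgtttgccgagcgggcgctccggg
PCNA, on the minus strand at chr20:5126573-5126872, has GCGGGAAA from base -59 and CCAAT letters on either strand from bases -152, -79 and -25.
PCNA: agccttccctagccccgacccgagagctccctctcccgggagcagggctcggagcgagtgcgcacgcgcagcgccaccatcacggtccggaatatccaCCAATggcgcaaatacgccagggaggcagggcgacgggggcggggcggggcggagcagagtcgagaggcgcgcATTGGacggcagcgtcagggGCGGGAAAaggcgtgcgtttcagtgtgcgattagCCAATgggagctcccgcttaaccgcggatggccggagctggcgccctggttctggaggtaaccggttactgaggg
None of the E2F, CCAAT or E-box letters (CACGTG) was found in the windows shown for ORC5, on the minus strand at chr7:104207964-104208263, and ORC4, on the minus strand at chr2:148021502-148021801. ORC4 has a second window in the table, not shown, that holds the E-box letters.
ORC5: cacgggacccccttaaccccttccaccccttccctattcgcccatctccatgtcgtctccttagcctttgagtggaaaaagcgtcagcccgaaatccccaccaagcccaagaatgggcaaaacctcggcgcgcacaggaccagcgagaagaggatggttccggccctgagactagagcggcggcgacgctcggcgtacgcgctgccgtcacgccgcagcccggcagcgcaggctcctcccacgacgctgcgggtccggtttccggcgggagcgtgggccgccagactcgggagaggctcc
ORC4: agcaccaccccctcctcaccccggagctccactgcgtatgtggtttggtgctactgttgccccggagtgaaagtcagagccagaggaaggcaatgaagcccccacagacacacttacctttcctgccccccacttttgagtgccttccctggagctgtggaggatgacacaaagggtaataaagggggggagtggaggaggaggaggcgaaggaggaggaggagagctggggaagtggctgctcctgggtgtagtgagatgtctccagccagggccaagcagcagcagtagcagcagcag
The match is a description of letters and does not show that a factor binds.

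Promoter windows were at hand for 48 of the 54 members; POLD3, RPA2, RPA3, MCM4, MCM5 and GINS4 had none in the table used. The E2F letters occurred in 24 of those 48 genes (50%) against 3.99% of all 27305 genes in the promoter table. Counted by window, they occurred in 37.9% of the members' windows and 3.31% of all windows. CCAAT was found in 56.2% of the 48 genes and 39.7% of all genes, and the E-box in 16.7% and 8.77%. The median log2 fold change for A-485 against DMSO was -2.22 for the 24 members with E2F letters and -1.51 for the 24 without, given without a test. CDC45, FEN1 and TK1 were among those without these letters in the window and had fold changes of -3.11, -2.64 and -2.83, so members on both sides of this division fell deeply.

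A-485 lowered nearly the whole replication programme. Of the 54 genes, 51 fell and 1 rose against DMSO, while 27.1% of all genes tested fell and 26.3% rose. The median log2 fold change of the members was -1.89, against 0.04 over all genes. A fall below -1 was seen in 48 members, below -2 in 24 and below -3 in 7. In 51 members every A-485 library was below every DMSO library, as in 43.6% of all genes, and in 1 every A-485 library was above, as in 46.3%. The libraries of ORC2 and ORC5 overlapped. Without Dox replicate 1, which enters this comparison only through the shared spread, 52 members were called lower and 1 higher, with 43.7% and 46.6% of all genes. In RNA from whole cultures, fewer cells in S phase and less RNA of these genes per cell cannot be told apart.

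**Figure D1:**
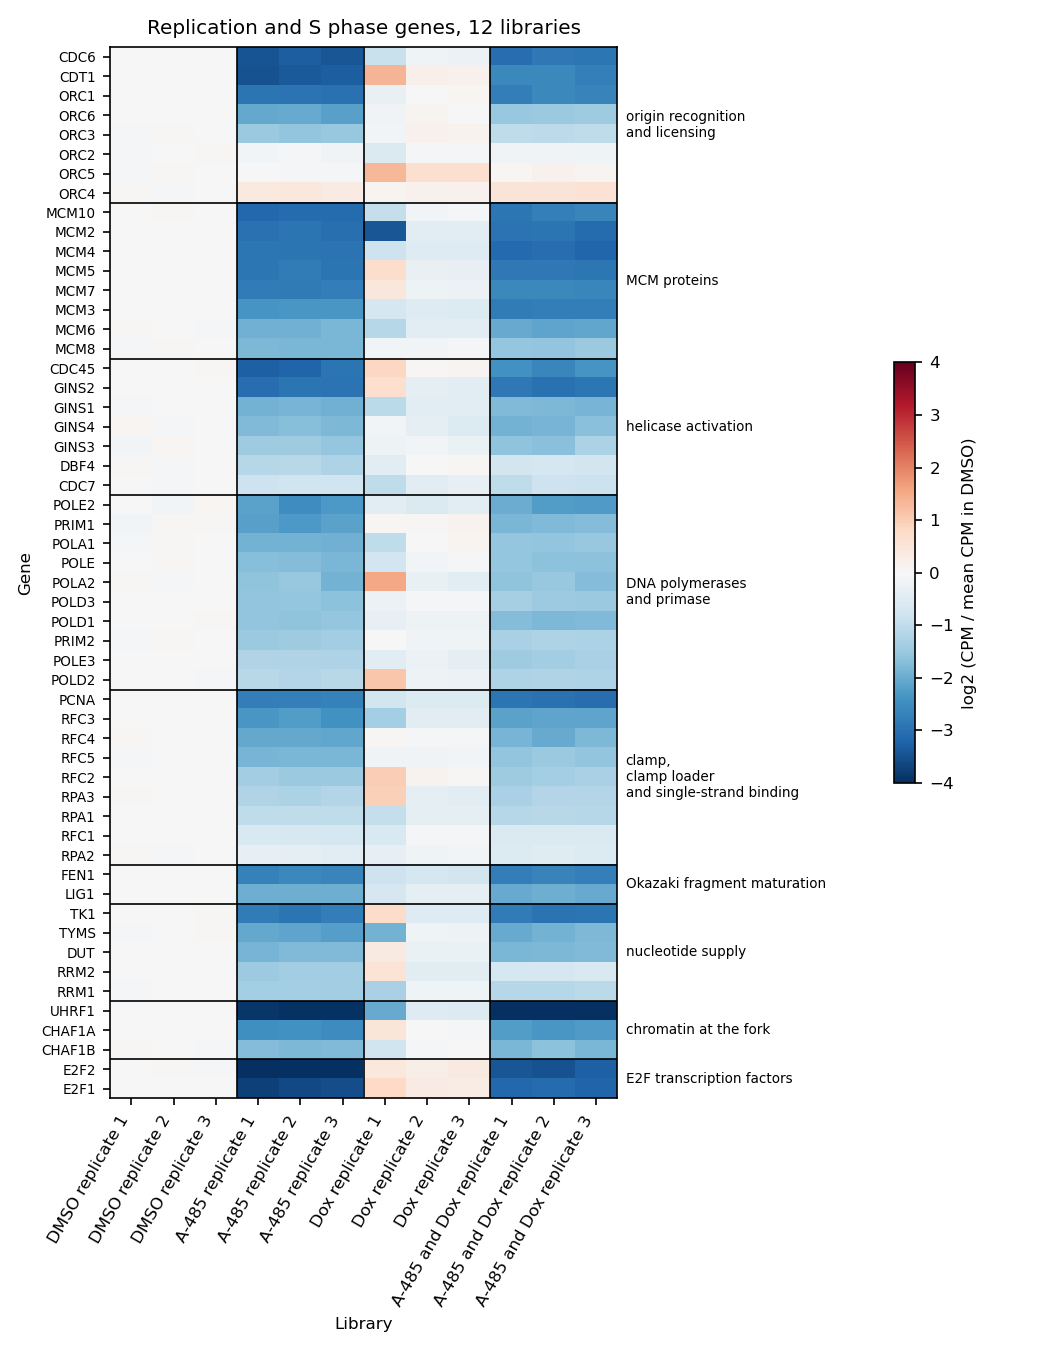
Each row is 1 of the 54 genes, grouped by role, and each column 1 of the 12 libraries; the colour is the log2 ratio of its CPM to the mean CPM in DMSO, with the scale ending at -4 and 4. The 6 libraries with A-485 are blue in almost every row, ORC4 is pale red there, and Dox replicate 1 departs in both directions from Dox replicates 2 and 3.

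Licensing split in an uneven way. CDC6, the ATPase that helps load the helicase, was at 70.8, 68.6 and 70.9 CPM in the DMSO libraries and at 6.45, 7.15 and 6.55 with A-485. It fell by 3.38 ± 0.17 (log2, SE, adjusted p = 1.6e-07) and was left at 9.58% of its DMSO level. CDT1, its partner in loading, was at 175, 177 and 178 CPM in DMSO and at 15.9, 17.4 and 18.2 with A-485. None of these libraries overlapped, and CDT1 fell by 3.36 ± 0.29 (adjusted p = 6.5e-06). Within the origin recognition complex, ORC1 is the subunit whose level varies through the cell cycle in human cells. ORC1 was at 31.9, 32.5 and 33.2 CPM in DMSO and at 4.33, 4.18 and 4.09 with A-485, and it fell by 2.95 ± 0.11 (adjusted p = 1.3e-08). ORC6 fell by 2.09 and ORC3 fell by 1.53.

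The other 3 subunits of the complex were not called lower with all libraries. ORC4 was at 54.0, 51.2 and 52.1 CPM in DMSO and at 69.2, 70.6 and 66.4 with A-485, all above DMSO. Its rise of 0.39 ± 0.06 (log2, adjusted p = 3.7e-04) was the single rise among the 54 genes. ORC2 had CPM of 70.1, 74.5 and 75.0 in DMSO and 68.5, 70.3 and 66.6 with A-485, which overlap (log2 fold change -0.10 ± 0.12, adjusted p = 0.53). Without Dox replicate 1 the same difference of -0.10 had an SE of 0.03 and an adjusted p of 6.8e-04, so its call rests on that library's part in the spread. ORC5 was at 17.0, 18.5 and 17.8 CPM in DMSO and at 17.8, 16.7 and 16.7 with A-485, with overlap and no call in either fit (log2 fold change -0.06 ± 0.16, adjusted p = 0.78).

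All 8 MCM genes fell, with a median log2 fold change of -2.84. MCM2, a subunit of the helicase ring, was at 145, 148 and 147 CPM in DMSO and at 18.6, 19.3 and 18.3 with A-485. The log2 fold change of -2.97 had an SE of 0.59 with all libraries (adjusted p = 0.0018) and 0.03 without Dox replicate 1, where MCM2 had only 13.7 CPM. MCM7, another ring subunit, was at 339, 340 and 340 CPM in DMSO and at 48.5, 48.2 and 49.7 with A-485. It fell by 2.80 ± 0.17 (adjusted p = 5.3e-07), with the libraries of each group far tighter than the gap between them. MCM10, which acts when the helicase is switched on, fell most in the group. Its CPM went from 37.1, 39.3 and 36.9 to 4.26, 4.44 and 4.43 (log2 fold change -3.11 ± 0.21, adjusted p = 9.0e-07). MCM8, which lies outside the ring and works in homologous recombination, fell least of the 8. It was at 81.5, 86.0 and 82.9 CPM in DMSO and 24.2, 23.6 and 23.5 with A-485 (log2 fold change -1.81 ± 0.06, adjusted p = 1.0e-08).

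All 7 genes of helicase activation fell, with fold changes of -3.11 to -0.80. CDC45, the helicase cofactor, was at 31.4, 31.7 and 33.0 CPM in DMSO and at 3.36, 3.51 and 4.24 with A-485. Its log2 fold change of -3.11 ± 0.21 (adjusted p = 9.7e-07) was the lowest in the group, followed by that of GINS2 at -2.98. The kinase subunit CDC7 moved least. It had 11.3, 10.9 and 11.4 CPM in DMSO and 6.36, 6.47 and 6.44 with A-485, again without overlap (log2 fold change -0.80 ± 0.15, adjusted p = 0.0014). CDC7 was not called when library totals alone replaced TMM. Its activator DBF4 fell by 1.16.

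The polymerase and primase group fell in all 10 genes, within a narrower range. POLE2, a subunit of polymerase epsilon, was at 12.6, 11.6 and 13.1 CPM in DMSO and at 2.79, 2.22 and 2.51 with A-485 (log2 fold change -2.31 ± 0.12, adjusted p = 1.2e-07). POLD2, a subunit of polymerase delta, was at 129, 127 and 124 CPM in DMSO and at 58.6, 56.1 and 58.8 with A-485. It fell least, by 1.13 ± 0.30 (adjusted p = 0.01), and still kept 45.6% of its DMSO level. The catalytic subunits POLA1, POLD1 and POLE, of polymerases alpha, delta and epsilon, had fold changes of -1.90, -1.57 and -1.76, and the primase subunits PRIM1 and PRIM2 -2.20 and -1.43.

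The 9 genes of the clamp, clamp loader and single-strand binding group all fell. PCNA, the ring that tethers the polymerases to DNA, was at 339, 341 and 337 CPM in DMSO and at 49.8, 51.2 and 51.7 with A-485. It fell by 2.74 ± 0.07 (adjusted p = 2.9e-09), to 15.0% of DMSO. The loader subunits RFC2 to RFC5 had fold changes of -2.32 to -1.45 and the large subunit RFC1 -0.65. Replication protein A coats single-stranded DNA in replication and in repair, and its subunits fell unevenly. RPA2 was at 37.5, 34.5 and 36.9 CPM in DMSO and at 28.7, 27.9 and 27.1 with A-485, a log2 fold change of -0.38 ± 0.07 (adjusted p = 0.0016), the smallest fall among the 51. RPA1 and RPA3 were at -1.02 and -1.21. RPA2 and RFC1 were not called when library totals alone replaced TMM.

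Both genes of Okazaki fragment maturation fell. FEN1, the nuclease that trims the flaps of lagging-strand fragments, was at 74.6, 74.8 and 74.9 CPM in DMSO and 11.4, 12.5 and 11.9 with A-485 (log2 fold change -2.64 ± 0.07, adjusted p = 2.4e-09). LIG1, the ligase that joins the fragments, was at 77.5, 78.1 and 77.7 CPM and then at 20.2, 20 and 20.2 (log2 fold change -1.95 ± 0.08, adjusted p = 4.2e-08).

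All 5 genes that supply nucleotides fell. TK1, thymidine kinase, was at 150, 148 and 156 CPM in DMSO and at 21.7, 19.8 and 22.4 with A-485 (log2 fold change -2.83 ± 0.30, adjusted p = 2.8e-05). TYMS, which makes thymidylate, was at 36.7, 38.0 and 38.6 CPM and then at 9.03, 8.70 and 8.17 (log2 fold change -2.13 ± 0.36, adjusted p = 6.3e-04). Other genes, of which ENOSF1 on the other strand has the largest part, overlap 46.6% of the exonic length of TYMS. Part of the TYMS reads may therefore be missing from its count. RRM1 and RRM2 are the subunits of ribonucleotide reductase. RRM2 went from 146, 147 and 146 CPM to 53.7, 55.3 and 56.1 (log2 fold change -1.41 ± 0.23, adjusted p = 4.5e-04). RRM1 went from 131, 136 and 134 CPM to 51.9, 52.2 and 51.6, a log2 fold change of -1.37 ± 0.24 (adjusted p = 8.6e-04), so the subunits fell by nearly the same amount.

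UHRF1, which brings the maintenance DNA methyltransferase to newly copied DNA, had the second deepest fall of the 54. It was at 106, 110 and 107 CPM in DMSO and at 7.24, 7.01 and 7.01 with A-485, or 6.58% of DMSO (log2 fold change -3.93 ± 0.34, adjusted p = 6.2e-06). CHAF1A and CHAF1B are subunits of the factor that places histones behind the fork. CHAF1B had 35.6, 34.3 and 32.8 CPM in DMSO and 10.2, 9.79 and 9.97 with A-485, a log2 fold change of -1.78 ± 0.18 (adjusted p = 1.7e-05), and CHAF1A fell by 2.46.

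The E2F factors had the lowest group median, -3.93. E2F1 was at 92.8, 93.3 and 94.0 CPM in DMSO and at 6.95, 7.61 and 7.96 with A-485 (log2 fold change -3.64 ± 0.14, adjusted p = 2.4e-08). E2F2 was at 17.9, 19.0 and 17.7 CPM and then at 1.16, 0.836 and 0.935, leaving 5.36% of DMSO. Its log2 fold change of -4.22 ± 0.13 (adjusted p = 6.1e-09) was the lowest of the 54.

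**Figure D2:**
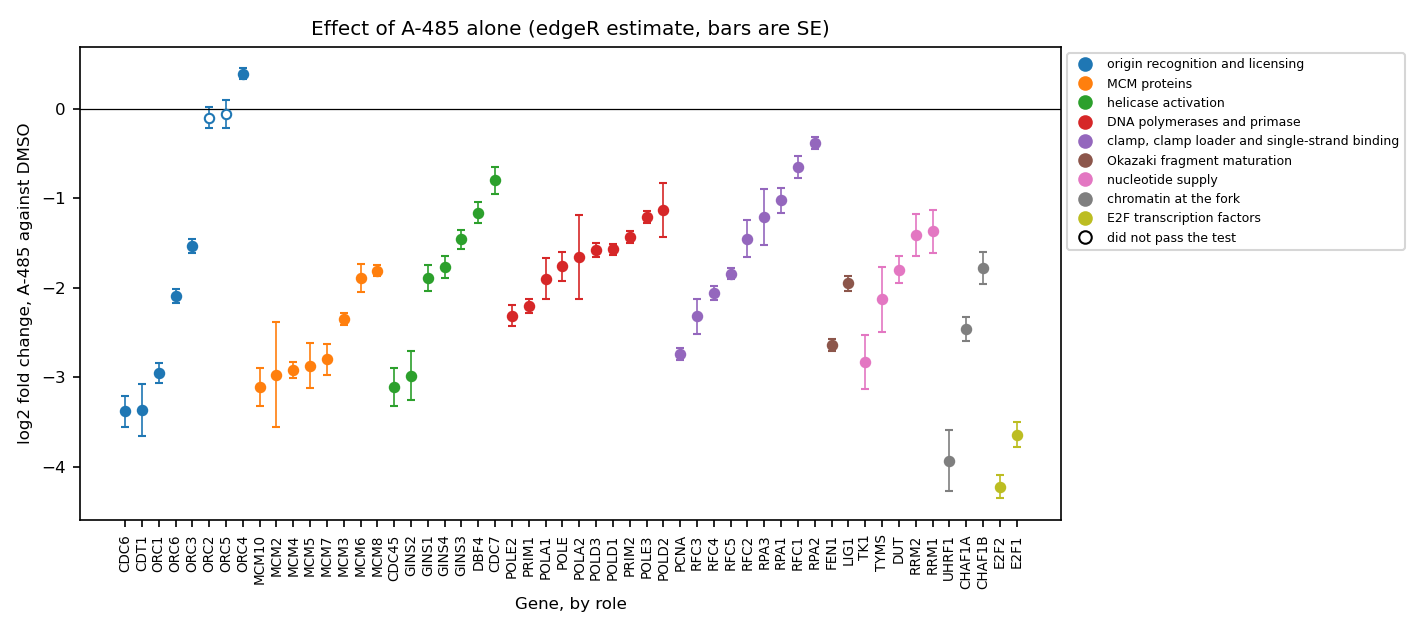
Points are log2 fold changes of the 54 genes for A-485 against DMSO from the fit to 12 libraries, with bars for the SE and colours for the role groups; open circles mark ORC2 and ORC5, which were not called. Values run from -4.22 for E2F2 to 0.39 for ORC4, and 48 genes lie below -1.

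Other lists of cell cycle genes went the same way to differing depths. Of the other replication and S phase genes, 37 of 38 were in the table, and 27 fell and 2 rose (median log2 fold change -1.15). DTL, which targets CDT1 for destruction, had a fold change of -3.83 and the checkpoint adaptor CLSPN -2.51, whereas POLD4, a small polymerase delta subunit, rose by 1.24. RRM2B, the p53-induced reductase subunit, had a log2 fold change of 0.27 that was not called (adjusted p = 0.44). Of the G1/S control genes, 30 of 31 were in the table, and 20 fell and 1 rose (median -1.04). MYC, a growth-promoting transcription factor, was at -3.87 and the repressor E2F8 at -3.32, the cyclin gene CCND3 rose by 2.07, and RB1, which encodes the E2F inhibitor, had 0.56 without a call (adjusted p = 0.24). All 19 mitosis genes in the table, of 20 listed, fell (median -1.64), from -2.48 for AURKB and -2.24 for BUB1B to -1.19 for CCNB2 and -0.81 for CENPE.

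The size of the fall depends on the scaling. With library totals alone in place of TMM, the median of all genes for A-485 against DMSO went from 0.04 to 0.39 and the share of calls that are higher from 49.2% to 69.3%. The members' median was then -1.54, with 48 called lower and 2 higher, ORC4 and ORC5. RFC1, CDC7, RPA2 and ORC2 were not called, so the calls of RFC1, CDC7 and RPA2 as lower depend on the scaling. The shares of all genes called with library totals are not given here. Relative to the median of all genes, the members' median was at -1.93 under both scalings. A change of scaling moves all genes by about the same amount, so this equality was fixed in advance and is no check. The 8 hepatocyte or hepatoma markers, all in the table, summed to 64500 to 65100 CPM in DMSO and 22500 to 22700 with A-485. The endothelial markers PECAM1 and TIE1 summed to 5.80 to 6.05 and 11.9 to 12.5 CPM, the leukocyte markers CD14 and CD3D to 3.16 to 3.78 and 2.88 to 3.53, and the stromal marker PDGFRB to 5.16 to 5.70 and 0.600 to 0.870. EMCN, PTPRC, COL1A1 and DCN were not analysed here. The part of these marker levels in the result was not tested.

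Doxycycline alone moved the programme far less, with more members called lower than higher in both fits. With all 12 libraries, 13 members were called lower and 2 higher against DMSO, where 7.08% of all genes were called lower and 9.01% higher. The members' median log2 fold change was -0.16, against 0.03 for all genes. Without Dox replicate 1, 36 members were called lower and 7 higher, beside 33.3% and 32.8% of all genes, with a median of -0.18. All Dox libraries were below all DMSO libraries in 26 members and above in 7, as in 20.5% and 19.7% of all genes, and without that library in 38 and 9, as in 38.2% and 37.9%. The genes that fell in both fits include MCM3, MCM4 and MCM6 of the helicase ring, PCNA, RFC3, FEN1, LIG1 and POLE2.

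FEN1 was at 42.5, 46.1 and 45.2 CPM with Dox, all under the 74.6 to 74.9 of DMSO, and fell by 0.75 ± 0.07 (adjusted p = 9.1e-05). PCNA was at 205, 234 and 234 CPM against 337 to 341 in DMSO and fell by 0.59 ± 0.07 (adjusted p = 5.1e-04). In both genes even Dox replicate 1 lay on the same side of DMSO as the other Dox libraries. UHRF1 was at 26.8, 75.8 and 74.2 CPM against 106 to 110 in DMSO. It was not called with all libraries (log2 fold change -0.87 ± 0.30, adjusted p = 0.082) and fell by 0.52 ± 0.03 without Dox replicate 1 (adjusted p = 5.1e-23). MCM2, at 13.7, 110 and 107 CPM, had the lowest value with all libraries (-0.93 ± 0.55, adjusted p = 0.26) and fell by 0.43 ± 0.03 without Dox replicate 1 (adjusted p = 6.3e-21).

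A few members rose under doxycycline. ORC5 was at 44.4, 27.9 and 28.2 CPM with Dox and at 17.0 to 18.5 in DMSO, a rise of 0.91 ± 0.16 (adjusted p = 0.0047) and of 0.66 ± 0.05 without Dox replicate 1 (adjusted p = 3.9e-18). E2F1 was at 163, 118 and 114 CPM against 92.8 to 94.0 in DMSO, a rise of 0.49 ± 0.13 (adjusted p = 0.027) and of 0.31 ± 0.03 without that library (adjusted p = 1.5e-14). ORC5 and E2F1 were the members called higher in both fits, and none of their Dox libraries overlapped DMSO. E2F2, at 24.6, 21.2 and 23.3 CPM against 17.7 to 19.0, was called only without that library (0.29 ± 0.05, adjusted p = 3.5e-06; with it, 0.34 ± 0.11, adjusted p = 0.067). CDT1 had 452 CPM in Dox replicate 1 and 204 and 201 in the others against 175 to 178 in DMSO. Its log2 fold change was 0.69 ± 0.27 with all libraries (adjusted p = 0.11) and 0.19 ± 0.03 without Dox replicate 1 (adjusted p = 6.5e-09).

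Some members changed sign with Dox replicate 1. POLA2, the accessory subunit of polymerase alpha, was at 13.5, 3.70 and 3.38 CPM with Dox and at 4.49 to 4.76 in DMSO. Its log2 fold change was 0.57 ± 0.45 with all libraries (adjusted p = 0.39) and -0.37 ± 0.10 without that library (adjusted p = 0.0012). MCM5, MCM7, GINS2, POLD2, RPA3 and TK1 likewise went from values above 0 that were not called to called values of -0.52 to -0.22. By role, without that library, all 8 MCM genes, all 5 nucleotide supply genes and both Okazaki fragment genes fell, and both E2F genes rose. Among the 8 licensing genes 4 rose and 1, CDC6, fell by 0.21 ± 0.03 (adjusted p = 1.2e-07). In that fit 33.3% of all genes were called lower and 32.8% higher, so the licensing count is not far from the share over all genes.

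**Figure D3:**
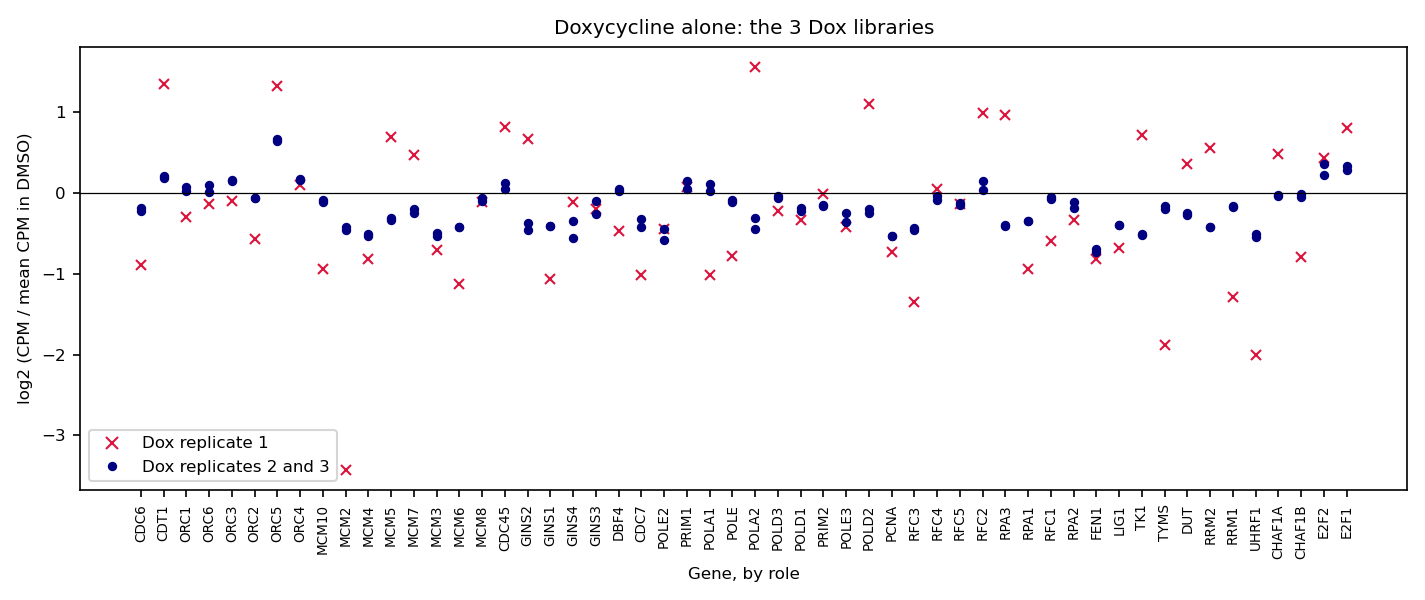
For each of the 54 genes in order of role, points show the log2 ratio of the CPM in each Dox library to the mean CPM in DMSO; crosses are Dox replicate 1 and dots are replicates 2 and 3. The dots lie close together and mostly below 0, while the crosses range from MCM2, far below, to POLA2, far above.

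Outside the 54 genes, the mitosis list fell in all 19 genes under doxycycline without Dox replicate 1 (median -0.39), the other replication and S phase genes in 25 of 37 with 6 higher (median -0.14), and the G1/S control genes in 16 of 30 with 6 higher (median -0.11), where 33.3% of all genes fell and 32.8% rose. With all 12 libraries the calls were 9 lower of 19, 3 lower and 1 higher of 37, and 3 lower and 1 higher of 30, where 7.08% of all genes fell and 9.01% rose. The 8 hepatocyte markers summed to 64600 CPM in Dox replicate 1 and to 52400 to 52700 in replicates 2 and 3, against 64500 to 65100 in DMSO. Of these markers 7 were called lower without Dox replicate 1 (median -0.32) and 2 with it (median -0.09). The endothelial markers summed to 5.54 to 6.38 CPM in the Dox libraries, the leukocyte markers to 2.46 to 8.20 and PDGFRB to 3.28 to 5.90. The part of these markers in the result was not tested.

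Adding doxycycline to A-485 gave smaller differences, and how many passed the test depended on the spread used. Against A-485 alone 7 genes rose and 1 fell with all 12 libraries, where 3.74% of all genes rose and 3.66% fell; without Dox replicate 1, which is in neither group and enters through the spread, 27 rose and 11 fell, beside 29.9% and 36.1% of all genes. With only these groups in the fit 29 rose and 10 fell, and the shares of all genes for that fit are not given here. The median log2 fold change of the members was 0.12. In 28 members all libraries with both compounds were above all A-485 libraries, in 12 all were below, and in 14 they overlapped, where 30.4% of all genes lay wholly above and 36.7% wholly below.

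E2F2 was at 1.69, 1.62 and 1.90 CPM with both compounds, above the 0.836 to 1.16 with A-485 alone, and rose by 0.83 ± 0.13 (adjusted p = 0.0037). E2F1 was at 10.5, 11.0 and 10.2 CPM, above 6.95 to 7.96, and rose by 0.49 ± 0.13 (adjusted p = 0.0498). These E2F levels were still 9.54% and 11.3% of those in DMSO. ORC6, a subunit of the origin recognition complex, rose by 0.62 ± 0.08 (adjusted p = 0.0014) and ORC3 by 0.50 ± 0.08 (adjusted p = 0.0053). The other calls were PRIM1 at 0.43, RFC5 at 0.29 and MCM8 at 0.28. MCM3, at 66.9, 67.8 and 67.5 CPM against 90.5 to 91.5 with A-485 alone, was the one member that fell, by 0.44 ± 0.07 (adjusted p = 0.0039).

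RRM2 and CDT1 had large differences that depend on the spread used. RRM2 was at 90.6, 92.2 and 96.3 CPM with both compounds and at 53.7 to 56.1 with A-485 alone, without overlap. Its log2 fold change of 0.76 ± 0.22 was not called with all libraries (adjusted p = 0.076) and was called without Dox replicate 1 (SE 0.02, adjusted p = 1.4e-32). CDT1 was at 29.8, 29.6 and 26.7 CPM against 15.9 to 18.2, with 0.74 ± 0.27 (adjusted p = 0.16) and, without that library, an SE of 0.04 (adjusted p = 3.9e-21). UHRF1 and PCNA went the other way, with log2 fold changes of -0.34 and -0.25 that were called only without Dox replicate 1 (adjusted p = 3.2e-06 and 1.6e-11; with it, 0.72 and 0.069).

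A-485 lowered the programme in the presence of doxycycline as well. Between A-485 and Dox and Dox alone, 51 members fell and ORC4 rose, with 32.9% and 27.1% of all genes, and the median was -1.51; without Dox replicate 1, 53 fell (43.6% of all genes) and ORC4 rose (44.2%), with a median of -1.57. The libraries did not overlap in 47 members that were lower and 1 that was higher, as in 33.7% and 34.0% of all genes, and without Dox replicate 1 in 53 and 1, as in 44.9% and 46.0%. With library totals alone, the median of all genes in this comparison went from -0.06 to 0.36. Then 44 members were called lower and 1, ORC4, higher. Of the calls over all genes 67.1% were higher, and the shares of all genes called in that setting are not given here. Against DMSO, cells with both compounds had 51 members lower (28.5% of all genes) and 1 higher (27.4%), with a median of -1.78. Every library with both compounds was below every DMSO library in 52 members and above in 2, as in 44.1% and 46.5% of all genes. MCM4, PCNA and UHRF1 were at 11.6%, 12.7% and 5.21% of their DMSO levels with both compounds, and RRM2 at 63.7%. Markers in these libraries summed to 20700 to 21000 CPM for hepatocytes, 11.1 to 11.4 for endothelial cells, 1.92 to 2.39 for leukocytes and 1.17 to 1.5 for PDGFRB; their part in the result was not tested.

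The interaction term asks whether the effect of A-485 differed with doxycycline, and a value above 0 means a smaller fall when doxycycline was present. With all 12 libraries, 3 members were called above 0, against 1.25% of all genes, and none below, against 1.32%. At an unadjusted p under 0.05 edgeR counted 20 members above and 1 below 0, and DESeq2 called 14 above and 1 below. Over all genes, 50.3% of the DESeq2 interaction calls were above 0. The shares of all genes that pass these rules are not given here, so both counts are descriptions. Without Dox replicate 1, 46 members were called above 0 and 1 below, beside 21.8% and 26.6% of all genes. The members' median interaction was 0.32 with all libraries and 0.33 without that one. Both effects of A-485 are given side by side here, and they share no library.

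FEN1 had a fold change of -2.64 with A-485 alone and -1.98 on top of doxycycline (interaction 0.67 ± 0.09, adjusted p = 0.0061). ORC6 had -2.09 and -1.46 (0.63 ± 0.11, adjusted p = 0.018), and RFC5 -1.84 and -1.41 (0.42 ± 0.08, adjusted p = 0.027). For FEN1 the DMSO level was higher than the Dox level, and the levels with A-485 and with both compounds were close, at 12 and 11.3 CPM on average. For ORC6 the DMSO and Dox means were nearly equal, 33.9 and 33.8 CPM, and the levels under A-485 differed, 7.97 and 12.3 CPM. A smaller fall thus came from a lower starting level in one gene and a higher end level in the other.

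The widest interaction without Dox replicate 1 was that of RRM2. Its fold change was -1.41 with A-485 alone and -0.23 ± 0.03 on top of doxycycline (interaction 1.17 ± 0.03, adjusted p = 2.1e-33; with all libraries 0.78 ± 0.31, adjusted p = 0.27). POLE2, CDC6 and RFC3 followed at 0.68, 0.66 and 0.66, and with all libraries they were at 0.65, 0.86 and 0.90 without a call (adjusted p = 0.069, 0.088 and 0.14). ORC5 was the one member called below 0, at -0.47 ± 0.06 (adjusted p = 6.5e-09; with all libraries -0.73 ± 0.22, adjusted p = 0.14). It was at 17.1 CPM on average with A-485 and 19.4 with both compounds, while doxycycline alone had raised it. ORC4 and RFC2 had -0.02 and -0.00 and were not called (adjusted p = 0.68 and 0.99). With all libraries MCM2 was highest at 0.92 ± 0.78 (adjusted p = 0.54), and POLA2 and POLD2 were lowest after ORC5, at -0.51 ± 0.65 and -0.46 ± 0.42 (adjusted p = 0.67 and 0.57). MCM2, POLA2 and POLD2 were all among the genes in which Dox replicate 1 was far from its group. Without that library their interactions were 0.42, 0.43 and 0.13.

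**Figure D4:**
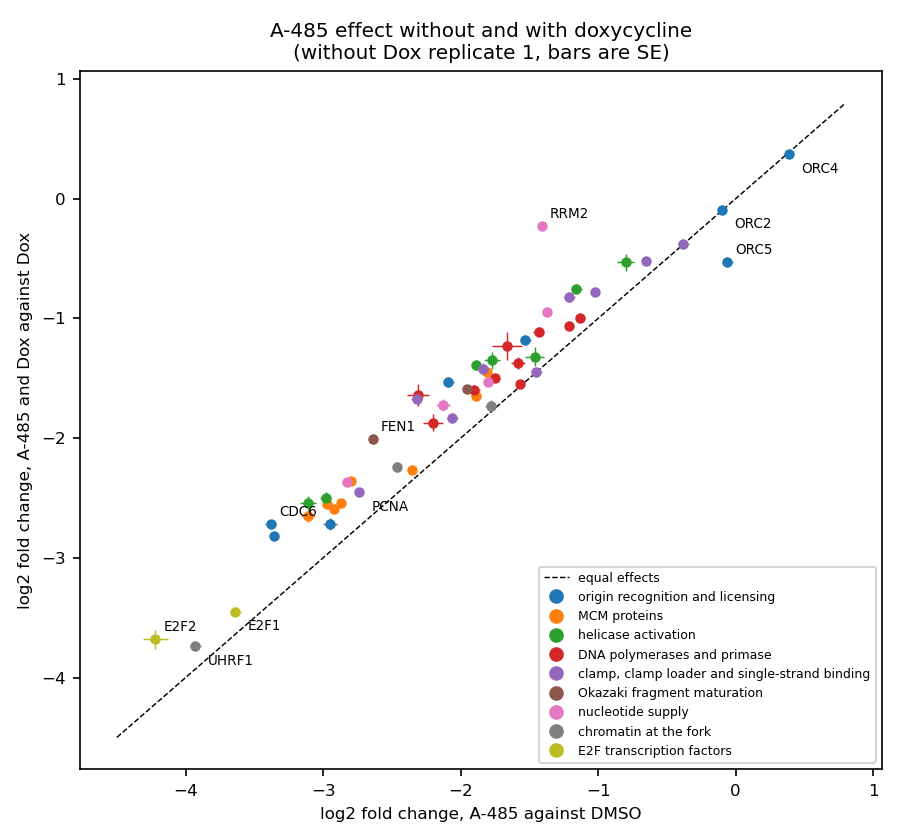
Each point is 1 of the 54 genes, with its log2 fold change for A-485 against DMSO on the horizontal axis and for A-485 and Dox against Dox on the vertical axis, both without Dox replicate 1; bars are SE and the dashed line marks equal effects. Most points lie above the line, RRM2 farthest, and ORC5 lies below it.

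The other cell cycle lists also had medians above 0 without that library. The mitosis list was called above 0 in all 19 genes (median 0.69), the other replication and S phase genes in 25 of 37 with 2 below (median 0.20), and the G1/S control genes in 17 of 30 with 7 below (median 0.17), beside 21.8% of all genes above and 26.6% below. With all 12 libraries 6 mitosis genes, 1 other replication gene and 3 G1/S control genes were called above 0 and 1 G1/S control gene below, beside 1.25% and 1.32% of all genes, with medians of 0.64, 0.27 and 0.38.

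Levels per kilobase of exon allow the subunits of a complex to be set side by side. In the origin recognition complex of DMSO cells, the mean level ran from 12.5 CPM per kb for ORC2 to 4.78 for ORC5, a ratio of 2.62. With A-485 it ran from 11.7 for ORC2 to 1.33 for ORC1, a ratio of 8.82, and ORC4 rose from the fifth place to the second. With both compounds the ratio was 6.97, again with ORC2 at the top and ORC1 at the bottom. In the helicase ring MCM3, MCM7 and MCM4 held the top 3 places in this order in all 4 groups, from 127 CPM per kb for MCM3 in DMSO to 25.0 with A-485. The lowest place went from MCM6 in DMSO, at 16.0, to MCM5 with A-485, at 2.68. In replication factor C, RFC1 was highest and RFC5 lowest in DMSO, A-485 and both compounds, and their ratio was 2.39, 5.44 and 4.67. GINS2 led GINS1 in DMSO and followed it with A-485. RRM1 led RRM2 in DMSO and A-485, and RRM2 led with both compounds, at 17.5 against 14.8 CPM per kb. Exonic length is the union over all annotated transcripts, so these levels understate genes with long rarely used exons, and places with close values carry no test.

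**Figure D5:**
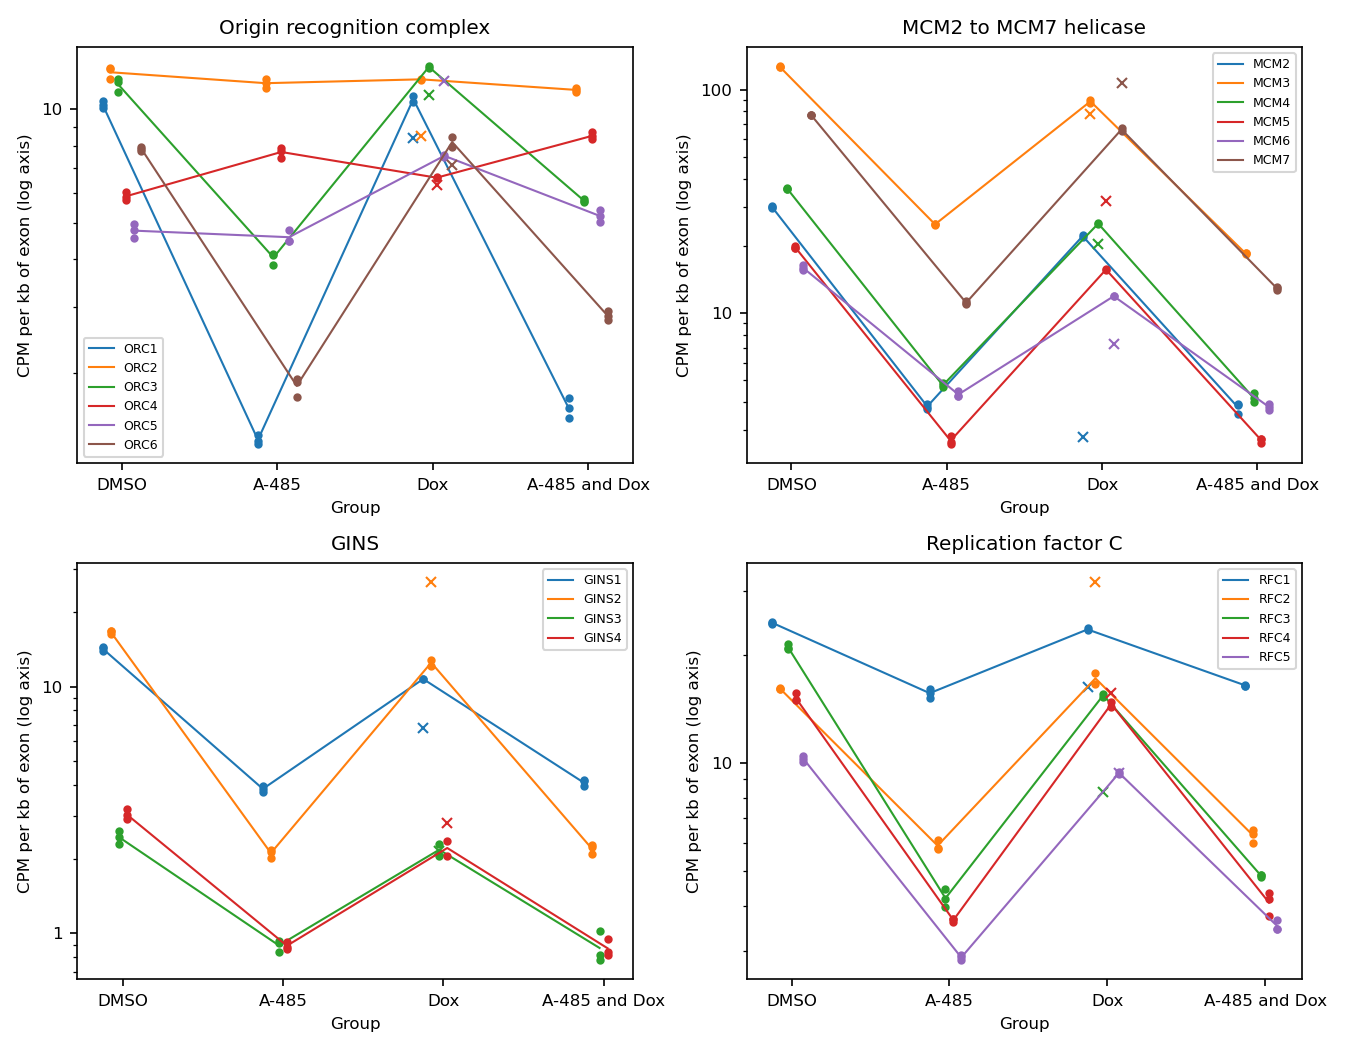
Levels in CPM per kb of exon, on log axes, of the subunits of 4 complexes in the 4 groups; dots are libraries, crosses are Dox replicate 1, and lines join group means, with the Dox mean taken over replicates 2 and 3. With A-485 the origin recognition subunits spread apart, from 11.7 for ORC2 to 1.33 for ORC1, while all subunits of the other 3 complexes shift down.

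A few counts carry an annotation limit. In 6 of the 54 members other genes overlap more than 20% of the exonic length: TYMS (46.6%), POLA2 (35.1%), MCM2 (23.6%), GINS4 (23.6%), PRIM1 (21.6%) and RRM2 (20.2%). Reads there can fall into the ambiguous row of the table, and no source used here says whether strand was used in counting. Their values are uncertain to that extent.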

How the data were processed

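The 12 HepG2 RNA libraries were grouped by sample title into 4 groups of 3. The submitters' processing notes name STAR 2.6.0a, HTSeq 0.10.0 and the build GRCh38. The deposited values are raw counts, and all gene rows exceed 1 CPM in at least 2 libraries, so genes below that were not analysed here. Rows that name no gene (ambiguous 9.10 to 12.3% of reads, multimapping 2.96 to 3.76%, no feature 3.30 to 4.09%, unmapped 1.80 to 8.93%) were left out of totals and tests. Replicate pairs had a chi-square per degree of freedom of 1.31 to 3.76, and 866 and 884 for pairs with Dox replicate 1. Each library was treated as a separate unit in the fits. The values of 1.31 to 3.76 do not show that the libraries are separate cultures.

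Counts were fitted in R 4.3.3 with edgeR 4.0.16 (TMM, glmQLFit with robust estimation, glmQLFTest), 1 coefficient per group over all 12 libraries, and p-values were adjusted over 13511 genes. The procedure was also run on simulated counts for A-485 against DMSO, with a spread near that without Dox replicate 1. The simulation held no outlying library, so it does not cover the fit to all 12 libraries. The SE is the size of the log2 fold change divided by the root of F. Alternatives were DESeq2 1.42.0, limma-voom (limma 3.58.1), library totals without TMM, only genes at a mean of 5 CPM or more (10631 genes), only the groups compared, a replicate block, and each library left out. Positions, exon lengths and overlaps came from GENCODE 29, and promoter windows from RefSeq.

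The members, the lists and the naming rule were chosen with earlier results of these data known. Described in full are 10 general S phase genes, the lowest and highest member of each role group for A-485 against DMSO, and the 3 lowest and 3 highest members of the doxycycline comparisons and the interaction, in the fits with and without Dox replicate 1. Members beyond this rule were named where they complete a group.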

Additional observations from a re-analysis of the deposited data

Results flagged for a closer look

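Members in which the effect of A-485 differed between cells without and with doxycycline, by the interaction term of the edgeR fit, are given here by value. With all 12 libraries the interaction (log2) was 0.67 for FEN1, 0.63 for ORC6 and 0.42 for RFC5, each a smaller fall with doxycycline, in groups of 3 libraries. Without Dox replicate 1 the extremes among the called members were RRM2 at 1.17, a smaller fall, and ORC5 at -0.47, where the A-485 fold change was -0.06 without doxycycline (not called) and -0.53 with it.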

How the results depend on the processing

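The fall of the members under A-485 was the most stable count: 51 to 52 members were lower and 1 higher whichever library was left out, library totals alone gave 48 lower and 2 higher, and the other alternatives gave 50 to 52 lower. Leaving out each library in turn gave 1 to 7 members higher and 6 to 36 lower for Dox against DMSO, 1 higher and 48 to 53 lower for A-485 and Dox against Dox, 3 to 27 higher and 1 to 11 lower for A-485 and Dox against A-485, 1 to 2 higher and 49 to 52 lower for A-485 and Dox against DMSO, and 1 to 46 above and 0 to 1 below for the interaction. The highest counts for the interaction, for Dox against DMSO and for A-485 and Dox against A-485 came without Dox replicate 1. The lowest came without a DMSO replicate for Dox against DMSO and without A-485 replicate 2 for higher calls in A-485 and Dox against A-485. Calls above 0 for the interaction numbered 1 without any single library outside the Dox group. For Dox against DMSO, higher calls by edgeR were 0 with only the groups compared (3 at an unadjusted p under 0.05) and 4 with DESeq2, and lower calls were 6 with library totals and 1 with only the groups compared. For A-485 and Dox against A-485, higher calls were 29 with only the groups compared and 11 with DESeq2, and lower calls by edgeR were 0 with library totals (1 at an unadjusted p under 0.05), 2 with the 5 CPM filter, 10 with only the groups compared and 3 with DESeq2. For A-485 and Dox against DMSO, higher calls were 2 with library totals and with only the groups compared. For the interaction, calls above 0 were 1 with library totals, 5 with the 5 CPM filter and 14 with DESeq2, and calls below 0 were 1 with library totals and with DESeq2. Apart from the fit without Dox replicate 1, the shares of all genes called under these alternatives are not given here.

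Signs turned, with a call in at least 1 of the fits compared, in the single genes listed here. Turns between values that were not called are left out. For example, CHAF1A for Dox against DMSO was at 0.16 with all libraries and -0.04 without Dox replicate 1. As each library was left out, the fold change for Dox against DMSO ranged from -0.33 to 0.27 for MCM5, -0.22 to 0.17 for MCM7, -0.42 to 0.24 for GINS2, -0.37 to 0.90 for POLA2, -0.22 to 0.60 for POLD2, -0.40 to 0.43 for RPA3 and -0.52 to 0.23 for TK1. For A-485 and Dox against Dox, ORC2 ranged from -0.09 to 0.14. The interaction ranged from -0.26 to 0.33 for MCM5, -0.84 to 0.43 for POLA2, -0.69 to 0.13 for POLD2, -0.44 to 0.39 for RPA3, -0.29 to 0.46 for TK1 and -0.09 to 0.18 for E2F1. In each of these the sign turned when Dox replicate 1 was left out. With library totals, ORC5 was at 0.29 for A-485 against DMSO, and RFC1 and RPA2 were at 0.02 and 0.08 for A-485 and Dox against Dox. The cause was not tested. Same-numbered libraries of different groups had correlations of -0.317 to 0.148 in their deviations from group means. Libraries with different numbers were not compared in this way, so the values cannot exclude pairing. With the replicate block, Dox against DMSO had 1 member higher and 11 lower, and the interaction 1 above 0.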
